A study of Mus musculus with 32 samples.

Results

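The 10 genes described here encode the metallothioneins Mt1 and Mt2 and 8 enzymes or transporters of antioxidant defence (Hmox1, Nqo1, Gclm, Gclc, Txnrd1, Srxn1, Slc7a11 and Prdx1). They were chosen by symbol, 10 of the 31053 genes in the count matrices, and all 10 were found. They were measured by single-cell RNA-seq (scRNA-seq) in stromal cells grown from bone marrow in an osteogenic culture, called BMSC-OBs, of 77 mice of the Diversity Outbred (DO) population, an outbred stock descended from several inbred strains. Femoral marrow cells were grown to confluence over 3 days and then kept for 10 days in a differentiation medium with ascorbic acid, β-glycerophosphate and 10 nM dexamethasone. Cells of 5 mice (13 pools) or 4 mice (3 pools) were pooled, and each of the 16 pools was sequenced in 2 runs, of which run 1 (HGYVNCCX2) was used. All pools had the same culture, with no engineered allele and no treated group, so the comparisons run between cell classes within a pool. Ages of the mice are not given in the sources used here. Mice were not separated within a pool, so each value is an average over 4 or 5 genotypes and, by the study's methods, either sex. The pool is the replicate. With the pool as a block, p-values set a class difference against its variation from pool to pool.

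Metallothioneins are small cysteine-rich proteins that bind zinc and copper, and their genes are switched on by metals through the zinc-sensing factor MTF1, by glucocorticoids and by oxidative stress. Most of the other genes are textbook targets of NRF2 (Nfe2l2), a transcription factor that KEAP1 holds at a low level until electrophiles or oxidants release it, and that BACH1 opposes at the same DNA element, the antioxidant response element. Slc7a11 imports cystine for glutathione, of which Gclc and Gclm together make the rate-limiting enzyme. In the parallel thioredoxin system Txnrd1 reduces thioredoxin, Prdx1 removes peroxide and Srxn1 repairs overoxidised peroxiredoxin, while Nqo1 reduces quinones and Hmox1 breaks down heme. In marrow, macrophages recycle the heme and iron of red cells.

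The promoters of Mt1 and Mt2 are shown because these neighbouring genes were both highest in the same mesenchymal class, as described below. Each run holds the 250 bases before and 50 bases after the transcription start in RefSeq (GRCm38.p6), 5′ to 3′ on the plus strand of chromosome 8, at chr8:94178839-94179138 for Mt1 and chr8:94172368-94172667 for Mt2. Capitals mark the core of the metal response element, searched as TGCACNC and TGCGCNC on both strands.
Mt1: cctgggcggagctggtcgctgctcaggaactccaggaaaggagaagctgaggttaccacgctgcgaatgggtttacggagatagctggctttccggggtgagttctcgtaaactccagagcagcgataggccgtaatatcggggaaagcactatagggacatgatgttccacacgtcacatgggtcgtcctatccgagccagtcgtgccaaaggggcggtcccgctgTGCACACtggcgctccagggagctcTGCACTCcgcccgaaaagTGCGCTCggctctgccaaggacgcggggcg
Mt2: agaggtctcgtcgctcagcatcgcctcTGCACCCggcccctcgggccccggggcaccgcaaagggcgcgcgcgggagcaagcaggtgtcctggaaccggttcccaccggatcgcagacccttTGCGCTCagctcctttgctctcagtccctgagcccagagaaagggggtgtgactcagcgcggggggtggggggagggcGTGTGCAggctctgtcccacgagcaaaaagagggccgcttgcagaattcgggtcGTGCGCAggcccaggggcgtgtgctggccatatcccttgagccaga
Mt1 held 3 such matches and Mt2 held 4. Of 32851 promoters of the same length, 25.7% held at least 1 match, 1.97% held at least 3 and 0.517% held at least 4. The genes are neighbours: Mt2 (ENSMUSG00000031762) spans chr8:94172664-94173568 and Mt1 (ENSMUSG00000031765) spans chr8:94179082-94180327, both on the plus strand, with 5513 bases between them.

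RefSeq promoters were found for 8 of the 10 genes. The antioxidant response element core, searched as TGACNNNGC on both strands, was found for 5 of the 8 genes, in 5 of their 10 promoters (Txnrd1 has 3), and 12.4% of all promoters held it. The windows below give the matches in capitals with 25 or 26 bases on either side, or fewer where the promoter window ended, on the plus strand, where a match on the minus strand reads as its reverse complement. They lie at chr3:122245398-122245457 (Gclm), chr4:116685441-116685500 (Prdx1), chr10:82859089-82859148 (Txnrd1, at 1 of its 3 starts), chr2:152105527-152105573 (Srxn1) and chr8:94172514-94172573 (Mt2).
Gclm: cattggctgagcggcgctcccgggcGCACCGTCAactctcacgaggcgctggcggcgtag
Prdx1: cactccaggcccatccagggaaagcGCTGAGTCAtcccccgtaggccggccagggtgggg
Txnrd1: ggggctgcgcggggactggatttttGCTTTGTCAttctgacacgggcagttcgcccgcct
Srxn1: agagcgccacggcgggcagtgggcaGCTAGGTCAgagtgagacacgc
Mt2: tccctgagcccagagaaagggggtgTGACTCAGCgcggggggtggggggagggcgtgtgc
Gclm also held 3 metal response element matches, of which 1 overlapped its antioxidant match, and Srxn1 held 1. The letters of neither core were in the windows of Nqo1 and Slc7a11. A match describes letters in a window and is not evidence of a bound site.

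In run 1, 107853 barcodes held 53990642 to 100777353 UMIs per pool, 88909 passed the filters and 83002 of these had at least 1000 UMIs. The median of a pool's cells lay between 2782 UMIs (pool 13, the next being 3774) and 15273 UMIs (pool 5). Both runs of a pool shared at least 84.5% of barcodes, and different pools shared 0.0461% to 0.434%. Cells were gated by 106 marker genes, none of them among the 10, into 6 mesenchymal classes, namely late mesenchymal progenitor (LMP)-like, osteoblast progenitor (OBP)-like, osteoblast 1 and 2 (OB1-like, OB2-like), osteocyte (Ocy)-like and marrow adipogenic lineage progenitor (MALP)-like cells, and 6 leukocyte classes. The classes held 10205 LMP-like, 8398 MALP-like, 7532 OBP-like, 5946 OB1-like, 4200 OB2-like, 3795 Ocy-like, 10027 macrophage-like, 1446 granulocyte-like, 386 monocyte-like, 356 T-cell-like, 265 B-cell-like and 265 osteoclast-like cells. A class counted in a pool with at least 20 cells, which gave 16 pools for 6 classes, 14 for OB2-like (not pools 1 and 2), 11 for granulocyte-like, 4 each for T-cell-like, B-cell-like and osteoclast-like and 3 for monocyte-like cells. The OB2-like gate rests mainly on genes known to be induced by low oxygen, and the B-cell-like gate had no leukocyte-side minimum, those cells having a median of 7.43 leukocyte-side UMIs per 10,000 against 51.2 to 94.1 in the other leukocyte classes.

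A level is the number of UMIs of a gene per 10,000 UMIs of a class in a pool, and means are given ± SD over pools. UMIs tag the 3′ ends of transcripts, so levels are not divided by gene length. Differences are log2 fold changes ± SE from edgeR's quasi-likelihood test on counts summed per pool and class, with the pool as a block and p-values adjusted over all genes tested, at 0.05. This test scaled libraries by trimmed means (TMM), which centres the median gene near 0. With scaling by library size alone, which is the scale of the levels, the median gene shifted by 0.23 for MALP-like against LMP-like, -0.34 for OBP-like against LMP-like, -0.19 for OB1-like against OBP-like, 0.14 for OB2-like and 0.16 for Ocy-like against OB1-like, -0.19 for macrophage-like against LMP-like and -0.60 for granulocyte-like against macrophage-like cells, and by -0.02 and -0.03 for osteoclast-like and T-cell-like against macrophage-like cells. A gene is therefore said below to have risen or fallen only where both scalings called it in that direction. Shares of all genes are given for each scaling singly, and none for both together. The share in both can be no larger than the smaller of those shares, so counts in both scalings have no matching share beside them.

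Mt1 was highest in OB2-like cells, at 24.8 ± 7.83 UMIs per 10,000 (SD, n = 14 pools), which was 5.41 times the mean in LMP-like cells (4.58 ± 1.85, n = 16). In OB2-like cells the lowest pool had 13.9, the median was 25.2 and the highest pool (18) had 40.6, whereas LMP-like cells ranged from 2.13 through a median of 3.76 to 7.69. The ranges of these 2 classes did not overlap, and OB2-like cells held the highest Mt1 of any mesenchymal class in 14 of 14 pools. The other mesenchymal classes followed in the order OB1-like (11.7 ± 4.12), Ocy-like (9.25 ± 3.42), OBP-like (6.95 ± 2.31) and MALP-like (6.57 ± 2.16). Mt1 was also counted in leukocyte classes. It stood at 5.26 ± 1.06 in macrophage-like cells (n = 16), 4.10 ± 1.24 in granulocyte-like cells (n = 11), 6.81 ± 3.01 in monocyte-like cells (n = 3) and 7.41 ± 0.938 in osteoclast-like cells (n = 4).

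**Figure D1:**
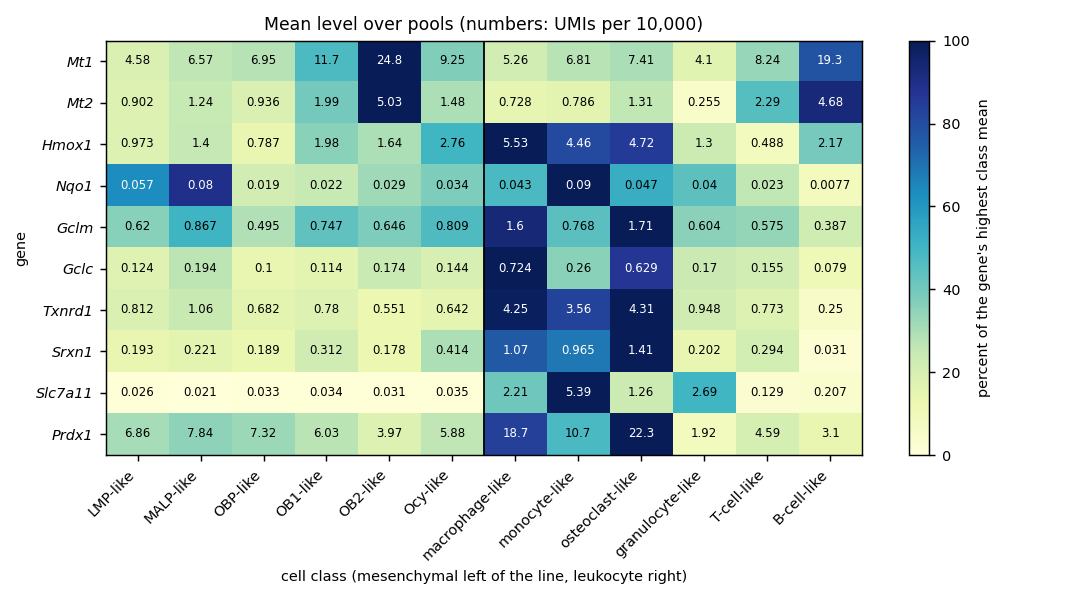
Mean level of each of the 10 genes (rows) in the 12 classes (columns) in UMIs per 10,000, written in each cell, with colour giving the percent of the gene's highest class mean. The metallothioneins peak in OB2-like and B-cell-like cells (Mt1 at 24.8 and 19.3), while the other genes except Nqo1 and Slc7a11 peak in macrophage-like or osteoclast-like cells.

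Mt2 had the same leading mesenchymal class as Mt1. OB2-like cells had 5.03 ± 3.96, with 1.91 in the lowest pool, a median of 3.77 and 17.5 in the highest (pool 18), and the other mesenchymal means lay between 0.902 ± 0.460 (LMP-like) and 1.99 ± 0.618 (OB1-like). OB2-like cells were again highest of the mesenchymal classes in 14 of 14 pools. The value of pool 18 came from 3960 UMIs in 159 cells, of which 129 had at least 1 and the highest had 375, and the next pool (6) stood at 7.80. Pool 18 also had the highest Mt2 in 5 of 7 classes (the 6 mesenchymal classes and macrophage-like cells).

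**Figure D2:**
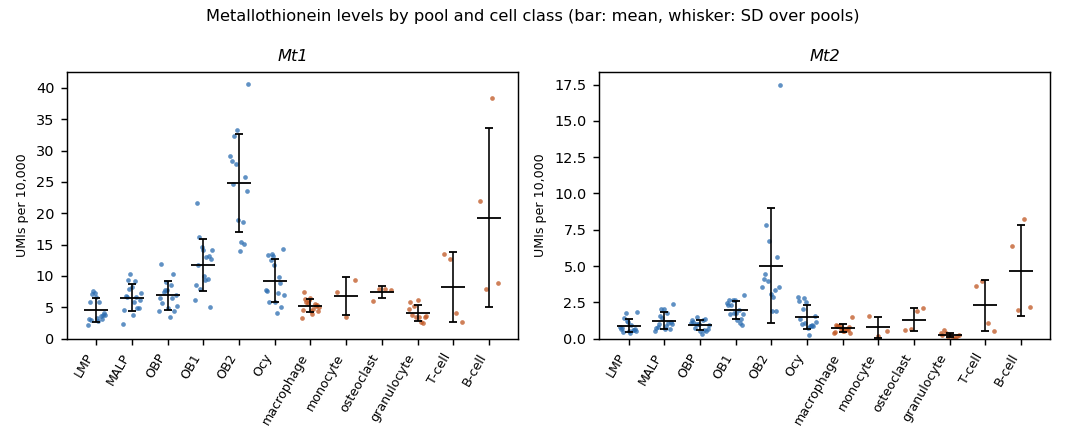
Level of Mt1 and Mt2 (UMIs per 10,000, linear axis from 0) in each pool and class. Each point is a pool, with the mean as a bar and the SD over pools as a whisker cut at 0. For Mt1, the 14 OB2-like points lie between 13.9 and 40.6, above every LMP-like point (2.13 to 7.69).

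The ratio of Mt1 to Mt2 UMIs was 5.57 ± 1.70 in LMP-like, 5.68 ± 1.45 in MALP-like, 5.89 ± 1.59 in OB2-like, 6.22 ± 2.08 in OB1-like, 7.55 ± 3.30 in Ocy-like, 7.87 ± 2.17 in OBP-like and 7.76 ± 1.74 in macrophage-like cells. Among these 7 classes pool 18 had the lowest ratio in 4 of 7 classes, with 2.03 to 5.84, and pool 1 in 3 of 6, with 2.47 to 8.87. In the smaller leukocyte classes other pools were lowest. Granulocyte-like cells had the highest mean ratio, 23.2 ± 16.1, over only 200 UMIs of Mt2, monocyte-like cells had 12.7 ± 6.91 and osteoclast-like cells 7.56 ± 4.29, and T-cell-like (4.02 ± 0.917) and B-cell-like cells (4.08 ± 0.502) had the lowest.

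B-cell-like cells had the second highest metallothionein levels with a wide spread between pools. Mt1 stood at 21.9, 7.97, 38.4 and 8.92 in pools 4, 6, 10 and 12, and Mt2 at 6.39, 1.95, 8.24 and 2.15. Pools 4 and 10 were high for both genes and pools 6 and 12 were low for both. In pool 10, 38 of 39 cells held an Mt1 UMI. T-cell-like cells showed the same kind of split, with Mt1 at 13.5 and 12.7 in pools 5 and 6 against 4.03 and 2.74 in pools 8 and 14, and Mt2 at 3.63 and 3.98 against 1.05 and 0.515. In pool 5 the 216 Mt1 UMIs came from 13 of 22 T-cell-like cells.

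RNA released from broken cells can enter any droplet, so Col1a1, a collagen gene that leukocytes lack, served as a measure of it. Its level in leukocyte classes was 2.87% (B-cell-like) to 5.15% (macrophage-like) of its level over all kept cells of the same pools. Mt1 in those classes was 43.1% (granulocyte-like) to 230% (B-cell-like) of its level over all kept cells, above the Col1a1 percentage in each. The leukocyte gates had already left out cells with many UMIs of mesenchymal-side markers, which can hold the Col1a1 percentage low. Mt1 was not gated on, so this contrast cannot tell how much leukocyte Mt1 came from released RNA. Conversely, the macrophage genes Lyz2, Ctss and Cd68 stood in mesenchymal classes at 0.472% to 1.25% of their macrophage-like level. Slc7a11 stood there at 0.939% in MALP-like and 1.16% in LMP-like cells, within that range, and just above it at 1.40% to 1.57% in the 4 osteogenic classes. The other 9 genes stood at 13.0% or more in every mesenchymal class. The mesenchymal gates had left out cells with many UMIs of leukocyte-side markers, which can hold the range of the macrophage genes low. A level above that range therefore does not show expression beyond released RNA.

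Hmox1 (chr8:75093621-75100589), the inducible heme oxygenase, was highest in macrophage-like cells, at 5.53 ± 1.33 (lowest 3.87, median 5.23, highest 8.29 in pool 6), and they led all classes in 16 of 16 pools. Osteoclast-like (4.72 ± 1.78) and monocyte-like cells (4.46 ± 1.12) followed. Among mesenchymal classes Hmox1 rose from OBP-like to Ocy-like cells. OBP-like cells had 0.787 ± 0.139 (0.590 to 1.07, median 0.778), OB1-like 1.98 ± 0.726 and Ocy-like 2.76 ± 1.14 (1.60 to 5.55, median 2.49), and the ranges of OBP-like and Ocy-like cells did not overlap. Ocy-like cells were the highest mesenchymal class in 13 of 16 pools. Pool 6 had the highest Hmox1 in 5 of 7 classes. T-cell-like cells had the lowest mean of all, 0.488 ± 0.266.

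Slc7a11 (chr3:49892526-50443614, minus strand), the cystine-importing subunit of the cystine/glutamate exchanger, was a myeloid gene in these cultures. Monocyte-like cells had 3.99, 7.00 and 5.19 in pools 8, 9 and 18, granulocyte-like cells had 2.69 ± 1.03 (0.956 to 3.84, median 2.94) and macrophage-like cells had 2.21 ± 0.664 (1.07 in pool 1 to 3.43 in pool 8, median 2.27). All 6 mesenchymal means lay between 0.0208 and 0.0347. In cells thinned to 2000 UMIs each, 28.9% ± 6.35 of macrophage-like and 31.7% ± 8.51 of granulocyte-like cells held an Slc7a11 UMI against 0.624% ± 0.312 of LMP-like cells (46.2%, 48.2% and 3.87% before thinning, at median depths of 5184, 4561.5 and 18526 UMIs). T-cell-like (0.129 ± 0.0853) and B-cell-like cells (0.207 ± 0.131) stood between, from 19 and 48 UMIs. A single B-cell-like cell held 11 of the 17 UMIs of pool 6, and another held 13 of the 21 of pool 10.

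Gclc (chr9:77754535-77794485) and Gclm (chr3:122245557-122270732), the catalytic and modifier subunits of glutamate-cysteine ligase, were both highest in macrophage-like cells in 16 of 16 pools. Gclc had 0.724 ± 0.134 in macrophage-like cells (lowest 0.496, median 0.735) and 0.629 ± 0.282 in osteoclast-like cells, against 0.0785 (B-cell-like) to 0.260 (monocyte-like, 0.400 in the second run) in all other classes. Gclm had 1.60 ± 0.601 in macrophage-like cells, where the median was 1.36, the lowest pool had 1.05 and pools 1, 2 and 6 stood high at 3.33, 2.49 and 2.07. Elsewhere Gclm varied little, from 0.387 in B-cell-like to 0.867 in MALP-like cells outside the osteoclast-like class. Osteoclast-like cells had 1.71 ± 0.976. Gclc was highest in pool 6 in 5 of 7 classes.

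Txnrd1 (chr10:82833951-82897712), cytosolic thioredoxin reductase, separated macrophage-like (4.25 ± 0.550, 3.41 to 5.26), osteoclast-like (4.31 ± 0.516) and monocyte-like cells (3.56 ± 0.774) from all other classes, which had means of 0.250 (B-cell-like) to 1.06 (MALP-like). Srxn1 (chr2:152105516-152111376), sulfiredoxin, had the same leading classes at 1.07 ± 0.252, 1.41 ± 0.7104 and 0.965 ± 0.0939, and Ocy-like cells led the mesenchymal classes (0.414 ± 0.122) in 12 of 16 pools. In B-cell-like cells only 9 Srxn1 UMIs were counted over 4 pools, and pool 10 had none, which allows up to 0.0569 UMIs per 10,000. Prdx1 (chr4:116685544-116700822), a peroxiredoxin, had 22.3 ± 3.74 in osteoclast-like and 18.7 ± 5.10 in macrophage-like cells (11.4 to 31.4, median 16.9), 3.97 ± 0.525 in OB2-like to 7.84 ± 1.16 in MALP-like cells among mesenchymal classes and the least in granulocyte-like cells (1.92 ± 1.32). Its highest pool was pool 1 or pool 2 in each of the 6 classes, mesenchymal and macrophage-like, that those pools entered, with 31.4 and 27.4 in their macrophage-like cells and 23.4 in the next pool.

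**Figure D3:**
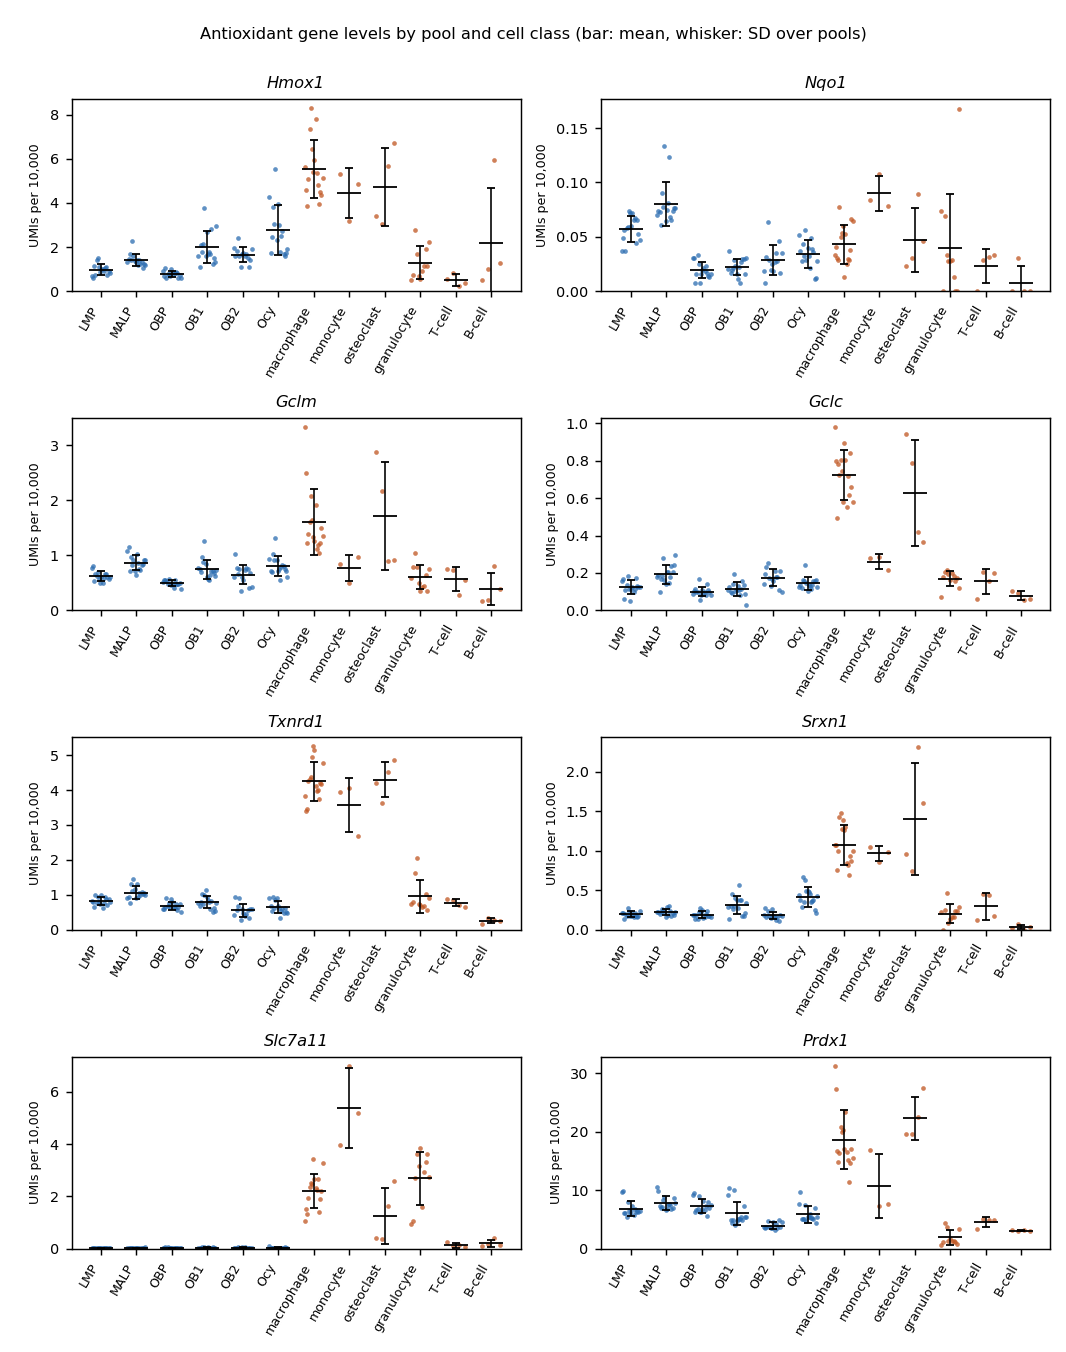
Level of the 8 antioxidant genes (UMIs per 10,000, linear axis per panel) in each pool and class, with the mean and SD over pools, SD bars being cut at 0. Macrophage-like and osteoclast-like means stand above every mesenchymal mean for Hmox1, Gclc, Txnrd1, Srxn1 and Prdx1, although Hmox1 points overlap (Ocy-like cells reach 5.55), and Slc7a11 is near 0 in every mesenchymal class.

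Nqo1 (chr8:107388225-107403206, minus strand) had another order. Few of its UMIs were counted in any class, with means of 0.00767 to 0.0898, and it was highest in MALP-like cells among the mesenchymal classes (0.0802 ± 0.0203, 0.0613 to 0.134, median 0.0741) in 15 of 16 pools. LMP-like cells had 0.0571 ± 0.0119 and the 4 osteogenic classes had 0.0192 to 0.0340. Macrophage-like cells had 0.0430 ± 0.0179. Monocyte-like cells had the highest mean (0.0898), from 20 UMIs, and T-cell-like and B-cell-like cells had 6 and 3 UMIs in all, 0 of them in T-cell-like cells of pool 5, which allows up to 0.188 UMIs per 10,000. Between both runs, Nqo1 and Slc7a11 levels of a pool and class differed by a median of 0.22 and 0.27 on the log2 scale, against 0.03 for Prdx1 and 0.06 for Mt1.

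With all 12 classes in 1 fit (136 pool-by-class sums, library-size scaling), neighbours in a gene's order of levels were compared, and 27 of 110 neighbouring pairs differed past the threshold. Between any 2 classes, 15.7% to 83.7% of 14222 genes differed in this fit (median 57.4% over 66 pairs). The neighbouring pairs were picked for adjacent levels in these same data, which lowers their share of calls, so these shares are not alike. For Mt1, OB2-like and B-cell-like cells did not pass against each other (log2 difference 0.11 ± 0.26, adjusted p = 0.728), B-cell-like cells were above OB1-like cells (0.94 ± 0.24, adjusted p = 5.10e-04), and none of the other 9 neighbouring pairs passed. For Mt2 the steps that passed were B-cell-like over T-cell-like, OB1-like over Ocy-like and macrophage-like over granulocyte-like cells. Hmox1 stepped down from monocyte-like to Ocy-like cells (0.72 ± 0.26, adjusted p = 0.0147), Txnrd1 from monocyte-like to MALP-like cells (1.71 ± 0.16, adjusted p = 3.25e-18), Srxn1 from monocyte-like to Ocy-like cells (1.17 ± 0.23, adjusted p = 4.94e-06) and Gclm from macrophage-like to MALP-like cells (0.86 ± 0.10, adjusted p = 1.40e-13). Monocyte-like levels came from 3 pools in the main setting. With the stricter gate monocyte-like Hmox1 was 3.04 (3.66 in the second run), beside a main-setting Ocy-like mean of 2.76. Monocyte-like Srxn1 was 0.740 with that gate. Gclc stepped down from osteoclast-like to monocyte-like cells (1.15 ± 0.30, adjusted p = 0.00215) and Prdx1 from macrophage-like to monocyte-like cells (0.70 ± 0.19, adjusted p = 0.00426). For Hmox1, Txnrd1, Srxn1, Gclc and Prdx1 only the first passing step from the top of the order is named. In all, 3 steps passed for each of Hmox1, Txnrd1, Srxn1 and Gclc, 5 for Prdx1 and 2 for Nqo1. Slc7a11 stepped down from monocyte-like to granulocyte-like cells (0.73 ± 0.25, adjusted p = 0.0126), from macrophage-like to osteoclast-like cells (0.98 ± 0.27, adjusted p = 0.00452) and from osteoclast-like to B-cell-like cells (2.52 ± 0.44, adjusted p = 5.22e-07). Macrophage-like and osteoclast-like cells did not pass against each other for Hmox1, Gclm, Gclc, Txnrd1, Srxn1 or Prdx1 in this fit.

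MALP-like cells, the adipogenic side of the stroma, were compared with LMP-like cells to follow the genes into that lineage. Of 11750 genes tested, 74.7% passed the threshold (39.3% higher and 35.4% lower in MALP-like cells), and 77.7% with library-size scaling, of which 72.0% were higher against 52.6% with TMM. Of the 10 genes, 7 rose and none fell in both scalings, by small amounts, namely Gclc (0.44 ± 0.08, adjusted p = 8.05e-05), Hmox1 (0.34 ± 0.07, adjusted p = 2.58e-04), Mt1 (0.34 ± 0.08, adjusted p = 0.00113), Nqo1 (0.29 ± 0.09, adjusted p = 0.00636), Gclm (0.28 ± 0.05, adjusted p = 1.52e-05), Mt2 (0.28 ± 0.11, adjusted p = 0.0335) and Txnrd1 (0.17 ± 0.04, adjusted p = 9.36e-04). Mt1, Hmox1, Gclm, Gclc and Txnrd1 were higher in 16 of 16 pools. Srxn1 and Prdx1 were called only with library-size scaling (0.19 and 0.20), and Slc7a11 only with TMM (-0.51 ± 0.23, adjusted p = 0.0494). With TMM 7 of the 10 genes were called higher and 1 lower, a share near that of all genes. Without the pool block Mt1 (adjusted p = 0.182), Mt2 (0.331) and Nqo1 (0.0624) did not pass in edgeR's test, nor did Mt2 in the second run (adjusted p = 0.0888), with RLE factors (0.0583) or with no filter on low counts (0.0644), which also ended the call on Txnrd1 (0.0541). Of 78 other genes of redox and metal pathways in 8 lists, 42 rose and 16 fell in both scalings. All 5 superoxide and peroxide genes rose. The largest rises were in Slc40a1, the iron exporter ferroportin (4.71 ± 0.09, adjusted p = 5.20e-20), and Mgst1, a microsomal glutathione transferase (3.46 ± 0.10, from 0.461 ± 0.133 to 5.83 ± 1.43 UMIs per 10,000), and the largest falls in Chac1, which degrades glutathione (-1.80 ± 0.14), and Psat1, of serine synthesis (-1.39 ± 0.09).

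OBP-like cells were compared with LMP-like cells as the first osteogenic step. Of 11939 genes, 77.7% passed (38.5% higher and 39.2% lower), and 84.9% with library-size scaling, of which 23.6% were higher against 49.6% with TMM. Mt1 rose (0.96 ± 0.10, adjusted p = 1.13e-08, higher in 16 of 16 pools) and Nqo1 fell by 1.29 on the log2 scale (SE 0.15, adjusted p = 3.96e-08), from 0.0364 to 0.0733 in LMP-like cells to 0.00730 to 0.0328 in OBP-like cells with no overlap. Prdx1 rose slightly (0.43 ± 0.04 with TMM and 0.10 ± 0.04 with library size), and Slc7a11 rose (0.75 ± 0.13) to 1.51% of its macrophage-like level. In the fit over all 12 classes Prdx1 did not pass (0.10 ± 0.10, adjusted p = 0.362). The other 6 genes depended on the scaling. Mt2 and Srxn1 were called higher with TMM alone (0.43 and 0.28), and Hmox1, Gclm, Gclc and Txnrd1 were called lower with library size alone (-0.28, -0.32, -0.27 and -0.25). Of 79 list genes tested, 23 rose and 25 fell in both scalings. With library size 2394 of all 11939 genes were higher and 7738 lower. Mgst1 and Ggt5, which act on glutathione conjugates, fell (-2.83 ± 0.13 and -2.88 ± 0.10), and Mt3, a metallothionein best known from brain, rose (3.88 ± 0.28) to a low level of 0.0265 ± 0.0152. Aox1, an aldehyde oxidase, rose by 2.16 ± 0.10.

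From OBP-like to OB1-like cells, which carry osteocalcin and other mature osteoblast markers, most of the genes rose together. Of 11000 genes, 52.8% passed (26.2% higher and 26.5% lower), and 63.4% with library-size scaling, of which 20.6% were higher against 49.7% with TMM. In both scalings 7 of the 10 rose and 1 fell. Hmox1 rose by 1.46 ± 0.12 (adjusted p = 5.12e-10), from 0.590 to 1.07 in OBP-like cells to 1.11 to 3.76 in OB1-like cells with no overlap. Mt2 rose by 1.30 ± 0.11 (adjusted p = 9.48e-10), Mt1 by 0.93 ± 0.10 (adjusted p = 3.63e-08), Srxn1 by 0.84 ± 0.14 (adjusted p = 2.68e-05) and Gclm by 0.75 ± 0.06 (adjusted p = 1.34e-09). Mt1, Mt2, Hmox1 and Gclm were higher in 16 of 16 pools. Gclc (0.41 ± 0.08) and Txnrd1 (0.35 ± 0.07) rose less, and Prdx1 fell by 0.13 on the log2 scale (SE 0.05, adjusted p = 0.0386). This fall of Prdx1 did not pass without pool 13 (adjusted p = 0.0689), without the pool block (0.457), with the stricter gate (0.103), with a floor of 2000 UMIs (0.0522) or with at least 50 cells (0.0561). Of 77 list genes, 18 rose and 23 fell in both scalings. With library size 1434 of all 11000 genes were higher and 5541 lower. Among 9 regulators of NRF2 signalling 6 rose and 1 fell, and the strongest rise of any list gene was in Bach1, the repressor that competes with NRF2 (1.09 ± 0.08, adjusted p = 1.05e-10, from 0.7095 ± 0.127 to 1.34 ± 0.332 UMIs per 10,000). Osgin1 (1.02 ± 0.15) rose as well, while Aox1 (-1.19 ± 0.17) and Sod3, the extracellular superoxide dismutase (-1.03 ± 0.09), fell.

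In OB2-like against OB1-like cells, Mt1, Mt2 and Gclc rose and Hmox1, Txnrd1, Srxn1 and Prdx1 fell. The study inferred separate osteogenic paths from OBP to OB1 and from OBP to OB2, so this pair is not a step along a single path. By mean level alone, OB2-like cells had more Hmox1 than OBP-like cells (1.64 against 0.787) and similar Srxn1 (0.178 against 0.189). Their Txnrd1 (0.551 against 0.682) and Prdx1 (3.97 against 7.32) were lower than in OBP-like cells. The classes OB1 and OB2 follow clusters that the study drew from these same cells, so these directions are not independent evidence. The study calls both clusters mature osteoblasts. In the gates used here, OB1 markers stood at 29.9 UMIs per 10,000 in OB2-like cells, against 238 in OB1-like and 51.1 in OBP-like cells. Of 10854 genes, 59.8% passed (30.3% higher and 29.5% lower in OB2-like cells), and 60.8% with library-size scaling, of which 67.1% were higher against 50.7% with TMM. Over the 14 pools Mt1 had 24.8 ± 7.83 in OB2-like and 12.4 ± 4.00 in OB1-like cells (0.85 ± 0.14, adjusted p = 4.77e-05) and Mt2 5.03 ± 3.96 and 1.93 ± 0.639 (1.03 ± 0.15, adjusted p = 6.70e-06), and both were higher in 14 of 14 pools. Gclc rose too (0.46 ± 0.10, adjusted p = 8.57e-04, 13 of 14 pools). Srxn1 fell by 0.95 (SE 0.14, adjusted p = 1.40e-05) and Prdx1 by 0.60 (SE 0.06, adjusted p = 1.33e-07), each lower in 14 of 14 pools, and Txnrd1 fell by 0.69 (SE 0.12, adjusted p = 9.19e-05) and Hmox1 by 0.44 (SE 0.11, adjusted p = 0.00190) on the log2 scale. In the fit over all 12 classes Hmox1 did not pass between them (0.26 ± 0.15 higher in OB1-like cells, adjusted p = 0.132). Gclm was called lower with TMM only (-0.34 ± 0.10) and Nqo1 higher with library size only (0.44 ± 0.18). No call on the 10 genes changed without pool 18. Of 77 list genes, 23 rose and 16 fell in both scalings. In the list of other thioredoxin and peroxiredoxin genes 2 of 10 rose (Txn1 and Txnrd2) and 0 fell in both scalings. With TMM only, 2 were called lower (Txnrd3 and Prdx4), and library size called 5 of the 10 higher and 0 lower. Bach1 fell by 1.41 on the log2 scale (SE 0.15, adjusted p = 1.58e-07) to 0.575 ± 0.171 UMIs per 10,000, beside an LMP-like mean of 0.547 ± 0.138. Cbr3, a carbonyl reductase, fell by 1.07 (SE 0.13), while Trib3, a target of the stress factor ATF4, rose by 1.81 ± 0.23 (adjusted p = 1.67e-06) and Sod3 by 1.06 ± 0.23.

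From OB1-like to Ocy-like cells the metallothioneins were lower and Hmox1 higher. Of 9882 genes, 47.6% passed (23.4% higher and 24.1% lower in Ocy-like cells), and 59.8% with library-size scaling, of which 77.6% were higher against 49.3% with TMM. Mt2 fell by 0.66 (SE 0.12, adjusted p = 6.98e-05), Mt1 by 0.51 (SE 0.11, adjusted p = 3.54e-04) and Txnrd1 by 0.42 (SE 0.07, adjusted p = 2.04e-05) on the log2 scale. In the fit over all 12 classes OB1-like cells did not pass above Ocy-like cells for Mt1 (0.33 ± 0.15, adjusted p = 0.0636). Nqo1 (0.50 ± 0.18, adjusted p = 0.0232), Hmox1 (0.32 ± 0.10, adjusted p = 0.00707) and Srxn1 (0.29 ± 0.10, adjusted p = 0.0216) rose. Without the pool block none of these rises passed (adjusted p = 0.0567, 0.201 and 0.248), and that of Srxn1 did not pass without pool 13 (adjusted p = 0.0517) or with the stricter gate (0.109). OB2-like and Ocy-like cells were each compared with the same OB1-like cells, so these differences share that group. Taken singly, TMM called 3 of the 10 genes higher and 4 lower in Ocy-like cells, and library size called 5 higher and 3 lower. Of 72 list genes, 18 rose and 12 fell in both scalings, with rises in Mgst3 (1.19 ± 0.05, adjusted p = 2.66e-15) and Gpx1, the main glutathione peroxidase (0.86 ± 0.07, from 1.44 ± 0.487 to 2.93 ± 0.604 UMIs per 10,000), and falls in Gstm2 (-0.89 ± 0.07) and Psat1 (-0.79 ± 0.10).

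**Figure D4:**
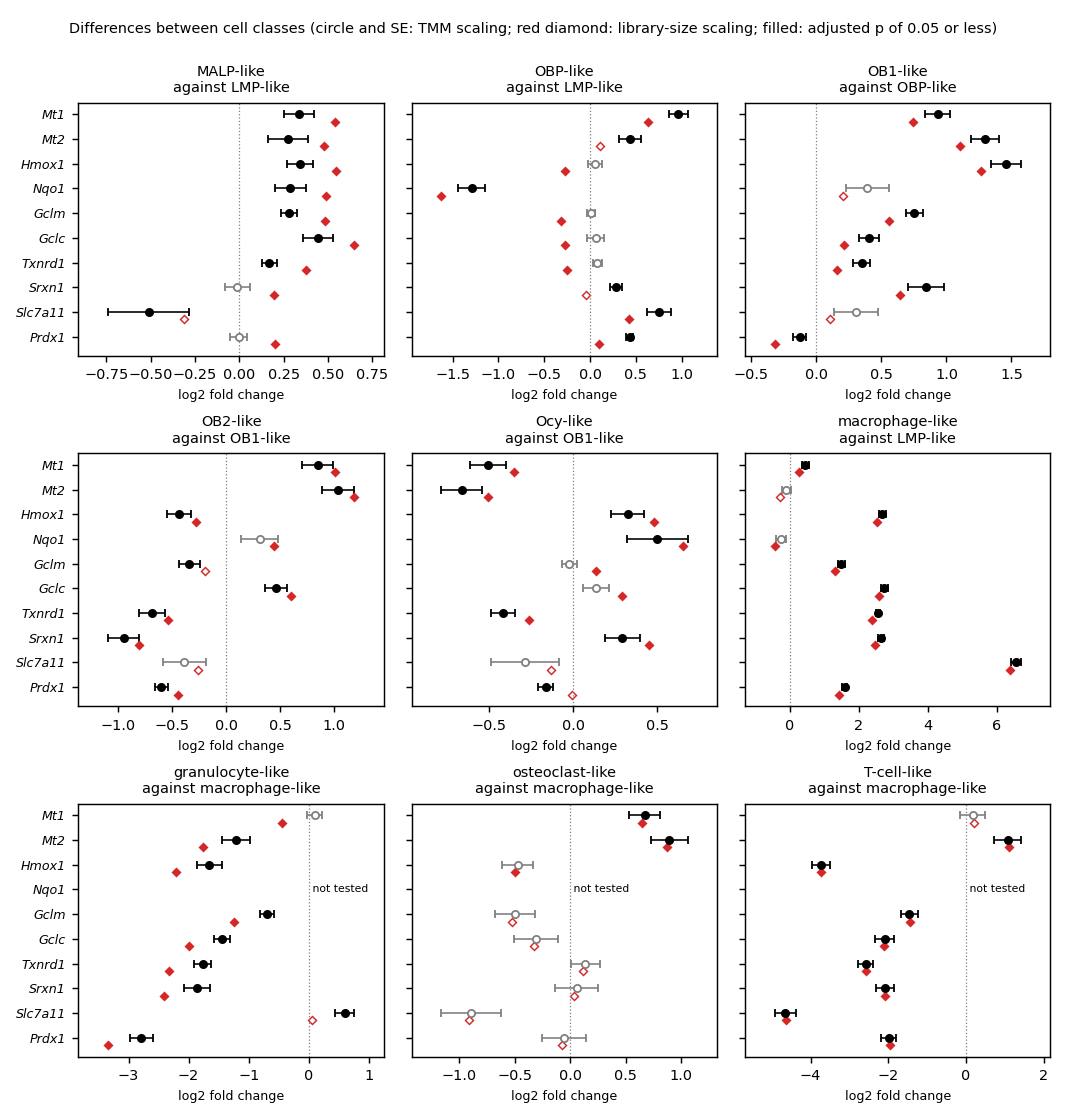
Log2 fold change of each gene in the 9 comparisons, with circles and SE bars for TMM scaling and red diamonds for library-size scaling, filled where the adjusted p was 0.05 or less. Diamonds and circles lie far apart where the median gene shifts with the scaling, most for granulocyte-like against macrophage-like cells (-0.60), and Slc7a11 stands alone at 6.57 for macrophage-like against LMP-like cells.

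Macrophage-like cells were compared with LMP-like cells to set the leukocyte side of the culture against the stroma. Of 11768 genes, 84.8% passed (42.1% higher and 42.8% lower in macrophage-like cells), and 85.7% with library-size scaling. In both scalings 8 of the 10 rose, and for 7 of these (all but Mt1) the pools of the 2 classes did not overlap. The share of all genes without such overlap is not given here, so this count does not set the members apart. Slc7a11 rose by 6.57 ± 0.14 (adjusted p = 2.39e-21, 94.8-fold), against an LMP-like level within the range that macrophage genes had in mesenchymal classes. Gclc rose by 2.75 ± 0.09, Hmox1 by 2.69 ± 0.09, Srxn1 by 2.64 ± 0.08, Txnrd1 by 2.56 ± 0.07, Prdx1 by 1.59 ± 0.06 and Gclm by 1.49 ± 0.10, with adjusted p of at most 2.39e-12. Mt1 rose by 0.45 ± 0.10 in 11 of 16 pools, and did not pass without the pool block (adjusted p = 0.0576) or in the fit over all 12 classes (0.26 ± 0.15, adjusted p = 0.0996). Mt2 (-0.10 ± 0.13, adjusted p = 0.464) and Nqo1 (-0.26 ± 0.16, adjusted p = 0.129) did not pass with TMM, and Nqo1 was lower with library size (-0.44 ± 0.16, adjusted p = 0.0127). Of 77 list genes, 44 rose and 25 fell in both scalings. NRF2 regulators (8 of 9 rose and 0 fell) and heme and iron genes (9 of 10 rose and 1 fell) were mostly higher, led by Slc40a1 (5.25 ± 0.14, adjusted p = 8.16e-20). Osgin1 rose by 4.22 ± 0.10. The thioredoxin and peroxiredoxin list was not, with 3 of 10 risen and 5 fallen, and the glutathione peroxidases Gpx7 (-3.34 ± 0.10) and Gpx8 (-3.22 ± 0.12), which reside in the endoplasmic reticulum, fell the most.

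Granulocyte-like against macrophage-like cells (11 pools) went the other way for most genes. Of 7509 genes, 69.0% passed (33.5% higher and 35.6% lower in granulocyte-like cells), and 78.0% with library-size scaling, of which 22.0% were higher against 48.5% with TMM. In both scalings 7 genes fell, each lower in 11 of 11 pools. Prdx1 fell by 2.79 (SE 0.19, adjusted p = 6.39e-10), Srxn1 by 1.85 (SE 0.22), Txnrd1 by 1.77 (SE 0.14), Hmox1 by 1.66 (SE 0.21), Gclc by 1.44 (SE 0.13), Mt2 by 1.21 (SE 0.23) and Gclm by 0.70 (SE 0.12) on the log2 scale. Slc7a11 was not called lower in either scaling. It was higher with TMM (0.60 ± 0.16, adjusted p = 0.00244) and near 0 with library size (0.05 ± 0.16, adjusted p = 0.804), at 2.69 ± 1.03 against 2.52 ± 0.485 UMIs per 10,000. Mt1 turned with the scaling, from 0.10 ± 0.12 (not passed) to -0.45 ± 0.13 (adjusted p = 0.00418), and Nqo1 was too low to test. Of 68 list genes, 14 rose and 29 fell in both scalings. With library size 1287 of all genes tested were higher and 4570 lower. Alas1, the first enzyme of heme synthesis (3.61 ± 0.15, adjusted p = 5.05e-13), and Prdx5 (3.32 ± 0.14, from 3.27 ± 0.702 to 22.2 ± 4.05 UMIs per 10,000) rose, and Maff (-2.74 ± 0.19) and Blvrb, a biliverdin reductase (-2.47 ± 0.17), fell. Prdx1 and Prdx5, both peroxiredoxins, thus differed in opposite directions between these classes.

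Osteoclast-like cells, which carry markers of the bone-resorbing lineage related to macrophages, were compared with macrophage-like cells in 4 pools. Of 9329 genes, 9.27% passed (4.59% higher and 4.68% lower in osteoclast-like cells), and 9.37% with library-size scaling. Mt1 was 6.01, 7.87, 8.00 and 7.74 in osteoclast-like cells of pools 1, 2, 5 and 6 against 3.26, 4.64, 5.84 and 5.63 in their macrophage-like cells (0.67 ± 0.14, adjusted p = 0.0112), and Mt2 was 0.602, 0.637, 1.90 and 2.11 against 0.367, 0.450, 0.880 and 0.948 (0.89 ± 0.16, adjusted p = 0.00570). Both were higher in 4 of 4 pools. Without the pool block neither passed (adjusted p = 0.153 for Mt1 and 0.359 for Mt2), and Mt1 lost its call without pool 1 (adjusted p = 0.0701) or pool 2 (adjusted p = 0.117). The other 7 genes tested did not pass with TMM, and Hmox1 passed as lower with library size only (-0.50 ± 0.14, adjusted p = 0.0413). Pools 1 and 2 differed from pools 5 and 6, which was not tested. Osteoclast-like cells of pools 1 and 2 had more Gclm (2.87 and 2.17 against 0.893 and 0.916 in pools 5 and 6) and Gclc (0.944 and 0.789 against 0.417 and 0.366), and less Slc7a11 (0.419 and 0.379 against 1.64 and 2.61), Hmox1 (3.397 and 3.065 against 5.68 and 6.73) and Srxn1 (0.960 and 0.743 against 2.32 and 1.60). The class rests on few cells (90, 60, 22 and 22) and on the gate. With a stricter gate, which pools 1 and 2 alone could meet, Prdx1 stood at 14.0 ± 2.93, Hmox1 at 2.44 ± 0.701, Srxn1 at 0.562 ± 0.151, Mt1 at 9.04 ± 2.54, Gclc at 1.08 ± 0.0986 (0.915 ± 0.150 in the macrophage-like cells of those pools) and Nqo1 at 0.0108 ± 0.0152, with 0 in 1 of the pools.

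Among the list genes the largest difference of osteoclast-like cells was in Mt3, another metallothionein, from the metal handling list, against a macrophage-like level near 0. It stood at 6.65, 7.40, 0.268 and 2.11 in pools 1, 2, 5 and 6 against 0.00451 ± 0.00702 in macrophage-like cells of the same pools (9.83 ± 0.40, adjusted p = 1.39e-07). It was seen in 130 of 265 osteoclast-like cells (49.1%) with 1877 UMIs, in every one of the 14 pools that held such a cell, and in 23 of 10027 macrophage-like cells. Granulocyte-like cells had 0 of 1446, which allows a share of cells with an Mt3 UMI of up to 0.207% at their median depth of 4561.5 UMIs, against 10735 UMIs in osteoclast-like cells, and sets no limit on cells expressing the gene. OBP-like cells came next among well-populated classes, with 190 of 7532 cells (2.52%). With the stricter gate the Mt3 level in osteoclast-like cells was 12.0 ± 3.93 (n = 2 pools). Of 77 list genes, 7 rose and 6 fell in both scalings. They included 4 of 7 ATF4 targets, with Phgdh of serine synthesis at 1.79 ± 0.28 (adjusted p = 0.00225), none of the 13 glutathione genes passed, and Slc40a1 (-2.47 ± 0.32, adjusted p = 8.10e-04) and Idh1 (-0.91 ± 0.19, adjusted p = 0.0121) fell.

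T-cell-like against macrophage-like cells (4 pools) showed nearly the whole antioxidant set at lower levels. Of 8768 genes, 55.2% passed (25.5% higher and 29.8% lower in T-cell-like cells), and 55.1% with library-size scaling. In both scalings 7 of 9 genes tested fell, each in 4 of 4 pools. Slc7a11 fell by 4.65 (SE 0.27, adjusted p = 1.94e-09), Hmox1 by 3.73 (SE 0.23, adjusted p = 4.14e-09), Txnrd1 by 2.58 (SE 0.19), Gclc by 2.10 (SE 0.25), Srxn1 by 2.09 (SE 0.23), Prdx1 by 1.99 (SE 0.19) and Gclm by 1.46 (SE 0.21) on the log2 scale. Metallothioneins did not follow. Mt2 rose by 1.07 ± 0.34 (adjusted p = 0.0143) in 3 of 4 pools and lost the call without pool 5 or pool 6 (adjusted p = 0.145 and 0.150) or with DESeq2 (adjusted p = 0.0752), and Mt1 did not pass (0.17 ± 0.32, adjusted p = 0.676). Of 72 list genes, 10 rose and 42 fell in both scalings. All 10 heme and iron genes fell, as did 7 of 9 NRF2 regulators, with none risen in either list, whereas 5 of 9 thioredoxin and peroxiredoxin genes rose. Phgdh (3.30 ± 0.21, adjusted p = 4.56e-09) and Psat1 (1.88 ± 0.20) were the largest rises, and Cbr3 (-4.29 ± 0.55) and Slc40a1 (-3.66 ± 0.54) the largest falls.

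To describe which genes had levels most like each member's, log2(UMIs per 10,000 + 0.1) was correlated over the 136 pool-by-class sums among 5468 genes, those with a mean of at least 0.5 UMIs per 10,000 in some class and the 10 members. These points share pools and libraries, so the values are descriptions. Mt1 and Mt2 were each other's closest gene (r = 0.85), and the next for Mt1 were Pafah1b3 (0.68) and Vwa1 (0.67). Slc7a11 was nearest to the myeloid genes Igsf6 (0.98), Cybb (0.98), which encodes the catalytic subunit of the phagocyte NADPH oxidase, and Clec4e (0.97). Gclc (Osbpl8 0.92, Ctsb 0.92 and Trem2 0.91) and Txnrd1 (Cndp2 0.93, Dab2 0.92 and Ctsb 0.91) had the lysosomal protease Ctsb in common, and Prdx1 was nearest to Akr1a1 (0.90), an aldehyde reductase. Hmox1 was nearest to Cebpb (0.85), Tgif1 (0.83) and Zfand5 (0.82), Srxn1 to Zfand2a (0.86), BC005537 (0.86) and Plekhm2 (0.85), Gclm to Ttyh2 (0.80), Gclc (0.77) and Tpp1 (0.77), and Nqo1 to Rab9 (0.74), Vcan (0.73) and Arrdc4 (0.72). Among the members, Gclc and Txnrd1 (0.85) and Txnrd1 and Srxn1 (0.84) went together, whereas Mt1 had r of -0.34 to 0.13 with the 8 other than Mt2.

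Pools were also compared within LMP-like cells, 1 of the 6 classes held in all 16 pools, with at least 233 cells in each, by 55 relations among the 10 genes and the median UMI count. In the main setting none passed a permutation test after Benjamini-Hochberg adjustment by Pearson's r or Spearman's rho, with 13 and 11 at an unadjusted p of 0.05 or less. The closest was between the glutamate-cysteine ligase subunits Gclm and Gclc (r = 0.75, permutation p = 0.00103, adjusted p = 0.0566, rho = 0.67, permutation p = 0.00552, adjusted p = 0.101), with r = 0.71 without pools 1 and 2. Gclm and Prdx1 had r = 0.72 (permutation p = 0.00239, adjusted p = 0.0579) and rho = 0.47 (permutation p = 0.0681, adjusted p = 0.288), but r = 0.21 without pools 1 and 2, so this relation rested on those pools. Mt1 and Hmox1 had r = 0.68 (permutation p = 0.00316, adjusted p = 0.0579), rho = 0.57 (adjusted p = 0.186), and r = 0.57 without pools 6 and 7. Mt1 and Mt2 had r = 0.63 (permutation p = 0.00799, adjusted p = 0.102) and rho = 0.69 (permutation p = 0.00440, adjusted p = 0.101), and r = 0.48 without pools 6 and 7. Txnrd1 and Srxn1 had r = 0.62 (permutation p = 0.0103, adjusted p = 0.102) and rho = 0.69 (permutation p = 0.00399, adjusted p = 0.101). Depth moved with 2 of the genes without passing, as the median UMI count had r = 0.61 with Nqo1 (permutation p = 0.0133, adjusted p = 0.105) and r = 0.56 with Mt1 (permutation p = 0.0244, adjusted p = 0.149). Its part in those levels was not tested. Without pool 13, Mt1 with Hmox1 and Gclm with Gclc passed the permutation test by r (adjusted p = 0.0396 each). Gclm with Prdx1 passed by r there too (adjusted p = 0.0445). With the stricter gate Gclm with Gclc passed by r (adjusted p = 0.0352). By rho none of these passed in those settings (adjusted p of at least 0.190).

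The share of cells with a UMI was compared at equal depth. With each cell thinned to 2000 UMIs, 82.7% ± 4.45 of OB2-like cells held an Mt1 UMI (n = 14) against 67.0% ± 11.6 of OB1-like, 57.5% ± 11.2 of Ocy-like and 44.0% ± 9.04 of LMP-like cells (97.2%, 90.4%, 84.9% and 84.1% before thinning). For Mt2 the shares were 38.2% ± 10.8 in OB2-like and 13.4% ± 4.07 in LMP-like cells. Hmox1 was found in 53.2% ± 5.86 and Txnrd1 in 53.8% ± 4.61 of macrophage-like cells, against 15.8% ± 3.28 and 14.1% ± 2.37 of LMP-like cells. Prdx1 was found in 90.7% ± 4.17 of macrophage-like and 18.9% ± 8.31 of granulocyte-like cells, so a granulocyte-like cell seldom held one at a depth at which a macrophage-like cell nearly always did. Nqo1 was found in at most 1.60% ± 0.550 of the cells of any mesenchymal class (MALP-like). LMP-like cells had median depths of 18526 UMIs and macrophage-like cells 5184 UMIs before thinning, and thinning left out 592 of 10205 and 844 of 10027 of them, those under 2000 UMIs. These shares depend on the depth chosen. With cells thinned to 1000 UMIs, 84 shares moved by more than the SD over pools and 36 did not, and Mt1 was found in 69.7% of OB2-like, 50.1% of OB1-like, 41.3% of Ocy-like and 29.7% of LMP-like cells, in the same order as at 2000 UMIs.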

How the data were processed

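The deposited files held raw UMI counts per gene and barcode, which the authors made with Cell Ranger 5.0.0 (per the labels) on GRCm38/mm10 from 10x 3′ libraries, as they stood ahead of any filter, doublet call or demultiplexing by genotype of theirs. The annotation release is not given in the sources used here. From the counts, 88909 of 107853 barcodes were kept, with 400 to 6200 genes and with mitochondrial genes taking no more than 10%, Rpl genes 20% and Rps genes 15% of UMIs, and those with at least 1000 UMIs were gated.

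A leukocyte class needed at least 20 leukocyte-side UMIs per 10,000 (except B-cell-like) and at most 100 mesenchymal-side ones. A mesenchymal class needed at most 5 leukocyte-side UMIs per 10,000, at least 3 of its markers and a score 0.25 above the next class, and 12647 cells nearer to the cut, 9850 between both sides and 3796 leukocytes and 2019 mesenchymal cells with no class were left out. Macrophage-like and granulocyte-like cells needed 4 markers and the other leukocytes 3. Cut points were set after the marker distributions were seen. No doublet caller was run, and 1670 barcodes that passed gates of both sides or of several types were left out.

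For each class the counts of a pool's cells were added up, and these sums were tested with edgeR 4.0.16 (R 4.3.3, quasi-likelihood, filterByExpr, TMM, Benjamini-Hochberg over all genes). The pool was a block because both classes came from the same mice and library: deviations of the same pool correlated with medians of 0.189 to 0.522 against -0.280 to -0.0163 for different pools, the lowest pair being -0.0137. On simulated data with known changes the test recovered 97.9% to 100% of changed genes in the 4 comparisons simulated. That share does not measure false calls. The osteoclast-like and T-cell-like comparisons, of 4 pools each, were not simulated. Alternatives were DESeq2 1.42.0, RLE factors, no filter, no block, the second run, no pool 13, a stricter gate (score 0.5 above the next and 1 more marker), a floor of 2000 UMIs and at least 50 cells. Library-size scaling, leaving out each of 4 pools, leaving out pool 18, and the scaling of the fit over all classes were chosen after seeing the data.

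The 10 genes and 8 lists (83 genes) were chosen with earlier results of these data known. Named list genes were those with the 2 largest rises and the 2 largest falls past the threshold in each comparison, and the 3 genes most like each of the 10 were named by Pearson's r. Gene coordinates are from GENCODE M21 and promoters from RefSeq (GRCm38.p6). Permutation tests drew 100000 resamples (Python 3.11.15, scipy 1.17.1). Limits given for a count of 0 stand for 3 counts and cover counting error only.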

Additional observations from a re-analysis of the deposited data

Results flagged for a closer look

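In groups of 4 to 10 pools, 30 sets of values were tested with Dixon's criterion, which flags about 1 in 20 by chance, and 5 values met it. Mt1 in osteoclast-like cells was 6.01 UMIs per 10,000 in pool 1, the nearest pool having 7.74. Hmox1 in B-cell-like cells was 5.93 in pool 10, the nearest having 1.26. Prdx1 in T-cell-like cells was 3.32 in pool 5, the nearest having 4.89. The values of Nqo1 met it by counts of 0 and do not show a pool that differs. It was 0 in T-cell-like cells of pool 5, where a count of 0 allows up to 0.188 UMIs per 10,000 and the other pools had at most 0.0336, and 0.0307 in B-cell-like cells of pool 6, from 3 UMIs, where the other 3 pools were at 0 with limits of 0.0569 to 0.0898.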

How the results depend on the processing

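The 9 comparisons and the correlations over pools gave counts of genes past the threshold that stayed within 1.5 times the main count in 96 repeats and moved further in 3 upwards and 4 downwards. A relation over pools counted only where both r and rho passed. Without the replicate block, Ocy-like against OB1-like cells gave 2987 genes (4701 with it) and osteoclast-like against macrophage-like cells gave 388 (865 with it), and no other count of calls moved by over 1.5 times. The osteoclast-like count was also 1433 with no filter on low counts, 2754 with the stricter gate and 2080 with at least 50 cells, the last pair over 2 pools, and 329 to 1017 leaving out 1 pool (383 without pool 1 and 329 without pool 2). T-cell-like against macrophage-like cells gave 4215 to 4581 leaving out 1 pool.

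For single genes, 860 repeats kept their direction and side of the threshold, 22 came to pass, 35 no longer passed and 31 changed sign. With library-size scaling the sign changed for Srxn1 (0.19) and Prdx1 (0.20) in MALP-like cells, for Hmox1 (-0.28), Gclm (-0.32), Gclc (-0.27), Txnrd1 (-0.25) and Srxn1 (-0.049) in OBP-like cells, for Gclm (0.13) in Ocy-like cells and for Mt1 (-0.45) in granulocyte-like cells, by construction of that scaling. With the stricter gate it changed for Hmox1 (-0.083) and Gclm (-0.023) in OBP-like, Mt2 (0.028) in macrophage-like, Mt1 (-0.11) in granulocyte-like and Gclc (0.16) and Srxn1 (-0.81) in osteoclast-like cells. Gclm in OBP-like cells was -0.0052 with DESeq2, -0.0058 with RLE factors, -0.041 with no filter and -0.0053 with a floor of 2000 UMIs. Mt1 in granulocyte-like cells was -0.054 with DESeq2, -0.0535 with RLE factors and -0.094 with no filter. In osteoclast-like cells Srxn1 was -0.040 with no filter, -0.31 with at least 50 cells and -0.21 (without pool 5) to 0.24 leaving out 1 pool, and Prdx1 was 0.13 in the second run, 0.16 without pool 1, 0.082 without pool 2 and -0.27 at the lowest. Mt1 in T-cell-like cells was -0.19 with at least 50 cells, -0.19 without pool 5 and -0.22 without pool 6, with 0.52 the highest leaving out 1 pool. Beyond the scalings, the cause was not tested. Of the class levels, 586 repeats stayed within the SD over pools and 14 did not, 9 of them with the stricter gate, 3 with at least 50 cells and 2 in the second run, where Gclc was 0.400 in monocyte-like and Txnrd1 0.649 in T-cell-like cells. All 14 were in osteoclast-like, monocyte-like, T-cell-like or B-cell-like cells, the classes with the fewest cells.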
